A study of Mus musculus with 2 samples.

Results

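Ptgs1, Ptgs2, Ptges, Ptgis and Pla2g4a are 5 genes of prostaglandin synthesis. They were taken by name from 18309 gene symbols in a single-cell study of small-intestinal fibroblasts grown together with crypts. Cells were profiled by Drop-seq, in which each cell's mRNA is barcoded inside a droplet, and came from C57BL6 mice aged 10 weeks. Ptger4-OFF co-cultures received ONO-AE3-208, an antagonist of the prostaglandin E2 receptor EP4, at 10 µM every other day, and formed budding organoids. Ptger4-ON co-cultures received the DMSO vehicle and grew as spheroids. Both conditions were kept in Organoid Growth Media and released with trypsin and EDTA. Each condition is 1 library from a pool of 6 co-cultures, so replicate error is unknown and conditions could not be tested against each other. Growth form and compound differ together between the libraries and cannot be told apart.

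Prostaglandins are made in steps. The cytosolic phospholipase A2 encoded by Pla2g4a frees arachidonic acid from membranes, and the cyclooxygenases COX-1 (Ptgs1) and COX-2 (Ptgs2) turn it into prostaglandin H2. The terminal synthases then set the product, prostaglandin E2 for Ptges (mPGES-1) and prostacyclin for Ptgis. In the gut, stromal cells are a known source of prostaglandin E2, and epithelial cells respond to it through EP4.

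In GENCODE vM21 (mm10), all 5 are protein-coding genes. Ptgs2 lies at chr1:150100031-150108227 (plus strand) and Pla2g4a at chr1:149829618-149961290 (minus strand), 138.7 kb apart. Ptgs1 lies at chr2:36230426-36252272 (plus strand), Ptges at chr2:30889471-30929863 (minus strand) and Ptgis at chr2:167191805-167240604 (minus strand). RefSeq promoter sequences (GRCm38.p6) matched 4 of the 5 symbols, all but Ptgis. The promoters of both cyclooxygenases and of Ptges are shown because the results by fibroblast type and in epithelial cells turn on these genes. Each runs 5′ to 3′ from 250 bases before the annotated start to 25 after it, with motif matches in capitals. The windows are chr1:150099781-150100055 (plus strand) for Ptgs2, chr2:36230176-36230450 (plus strand) for Ptgs1 and chr2:30903273-30903547 (minus strand) for Ptges. The RefSeq start used for Ptges lies inside the GENCODE span given above, not at the 5′ end of that span.
Ptgs2: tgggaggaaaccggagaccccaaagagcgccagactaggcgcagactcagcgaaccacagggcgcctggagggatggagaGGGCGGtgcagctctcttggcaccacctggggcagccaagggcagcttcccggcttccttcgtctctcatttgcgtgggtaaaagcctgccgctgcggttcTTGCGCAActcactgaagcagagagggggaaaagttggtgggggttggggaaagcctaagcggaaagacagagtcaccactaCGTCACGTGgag
Ptgs1: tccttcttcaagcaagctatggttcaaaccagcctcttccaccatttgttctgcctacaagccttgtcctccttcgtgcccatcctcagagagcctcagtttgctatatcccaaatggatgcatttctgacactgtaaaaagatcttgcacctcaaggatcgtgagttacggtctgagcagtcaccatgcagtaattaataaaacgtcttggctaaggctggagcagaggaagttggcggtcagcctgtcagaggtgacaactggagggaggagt
Ptges: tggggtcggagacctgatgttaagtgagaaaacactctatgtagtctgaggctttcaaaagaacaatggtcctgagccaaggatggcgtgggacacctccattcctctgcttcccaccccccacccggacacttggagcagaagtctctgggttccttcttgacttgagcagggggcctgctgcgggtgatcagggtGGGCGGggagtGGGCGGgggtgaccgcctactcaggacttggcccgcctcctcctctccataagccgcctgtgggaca
Both strands were searched for the cyclic AMP response element core TGACG, the C/EBP palindrome TTGCGCAA, the E-box CACGTG, the GC box GGGCGG and the TATA box TATAAA. The Ptgs2 window held a GC box starting at base -170, a C/EBP palindrome at -69 and, after the annotated start, TGACG on the minus strand at 14 overlapping an E-box at 17. Ptges held GC boxes at -53 and -42, and Ptgs1 held none of these letters. Of 32851 promoter windows of the same length, 0.18% held the C/EBP palindrome, 19.7% TGACG, 6.68% CACGTG, 34.4% the GC box and 13.0% TATAAA. These matches describe the letters only.

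The Ptger4-OFF library held 9490205 unique molecular identifiers (UMIs, 1 for each captured mRNA molecule) in 1599 barcodes, and the Ptger4-ON library 7408303 in 908. After filters, 1560 Ptger4-OFF and 876 Ptger4-ON cells remained, and 1 barcode sequence occurred in both libraries. A cell was called a fibroblast where its UMIs of Col1a1, Col1a2 and Col3a1 exceeded those of Epcam, Krt8 and Krt18, and an epithelial cell in the opposite case. That gave 360 Ptger4-OFF and 276 Ptger4-ON fibroblasts with medians of 4473.5 and 4879.5 UMIs, and 1199 Ptger4-OFF and 585 Ptger4-ON epithelial cells. In fibroblasts, 15 fibroblast markers outside the rule summed to 24651 Ptger4-OFF and 24247 Ptger4-ON CPM (counts in each 1000000 UMIs of the group). Mast cell and erythroid markers had 0 UMIs there, and so did the leukocyte gene Ptprc. The leukocyte list summed to 13.6 Ptger4-OFF and 18.9 Ptger4-ON CPM, mostly Lyz2. Fibroblasts with more Grem1 than Mgp UMIs are called Grem1-type (120 Ptger4-OFF and 103 Ptger4-ON cells) and those with more Mgp are called Mgp-type (182 and 126). The remaining 58 Ptger4-OFF and 47 Ptger4-ON fibroblasts tied, 51 and 41 of them with no UMI of either gene, and are called untyped. Grem1 encodes a BMP antagonist and Mgp a matrix protein.

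Cells near the class threshold were few and shallow and held few UMIs of the 5 genes. The 4 Ptger4-OFF and 7 Ptger4-ON fibroblasts only 1 or 2 UMIs above it held 0 and 1 Ptgs2 UMIs, and the 31 and 22 epithelial cells just outside it held 1 and 0. Those 31 Ptger4-OFF epithelial cells held 80 Grem1 UMIs and 1 Mgp UMI, with a median depth of 970.0 UMIs. They also held 2 of the 3 Ptgs1 UMIs of all Ptger4-OFF epithelial cells and 4 Pla2g4a UMIs. The 15 Ptger4-ON barcodes tied between classes held 62 Grem1 UMIs and 0 Ptgs2 UMIs. Between types, 36 of the Grem1-type and 36 of the Mgp-type cells in Ptger4-OFF, and 20 and 25 in Ptger4-ON, were 1 or 2 UMIs from a tie.

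All 5 genes had a higher level (CPM) in fibroblasts than in epithelial cells. In both libraries, 5 of 5 were past 1.5-fold higher in fibroblasts than in epithelial cells, against 25.1% of 11778 genes in Ptger4-OFF and 24.3% of 11525 in Ptger4-ON. None was past it lower, as 37.3% and 37.6% of those genes were. Ptgis was 461.5-fold [126 to 3835] and 91.3-fold [38.2 to 286] higher in fibroblasts of Ptger4-OFF and Ptger4-ON. Ptgs2 was 228-fold [148 to 370] and 57.0-fold [45.3 to 72.7] higher, Ptgs1 123-fold [40.7 to 607] and 80.9-fold [30.6 to 302], and Ptges 77.6-fold [38.4 to 183] and 16.0-fold [10.5 to 25.1]. Pla2g4a was the exception in size, at 3.26-fold [2.84 to 3.73] in Ptger4-OFF and 3.95-fold [3.40 to 4.60] in Ptger4-ON. Brackets hold 95% intervals for the counting of UMIs or cells alone, and differences among cells, cultures or mice come on top. In sums of this kind, fewer expressing cells and less RNA per cell cannot be told apart.

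**Figure D1:**
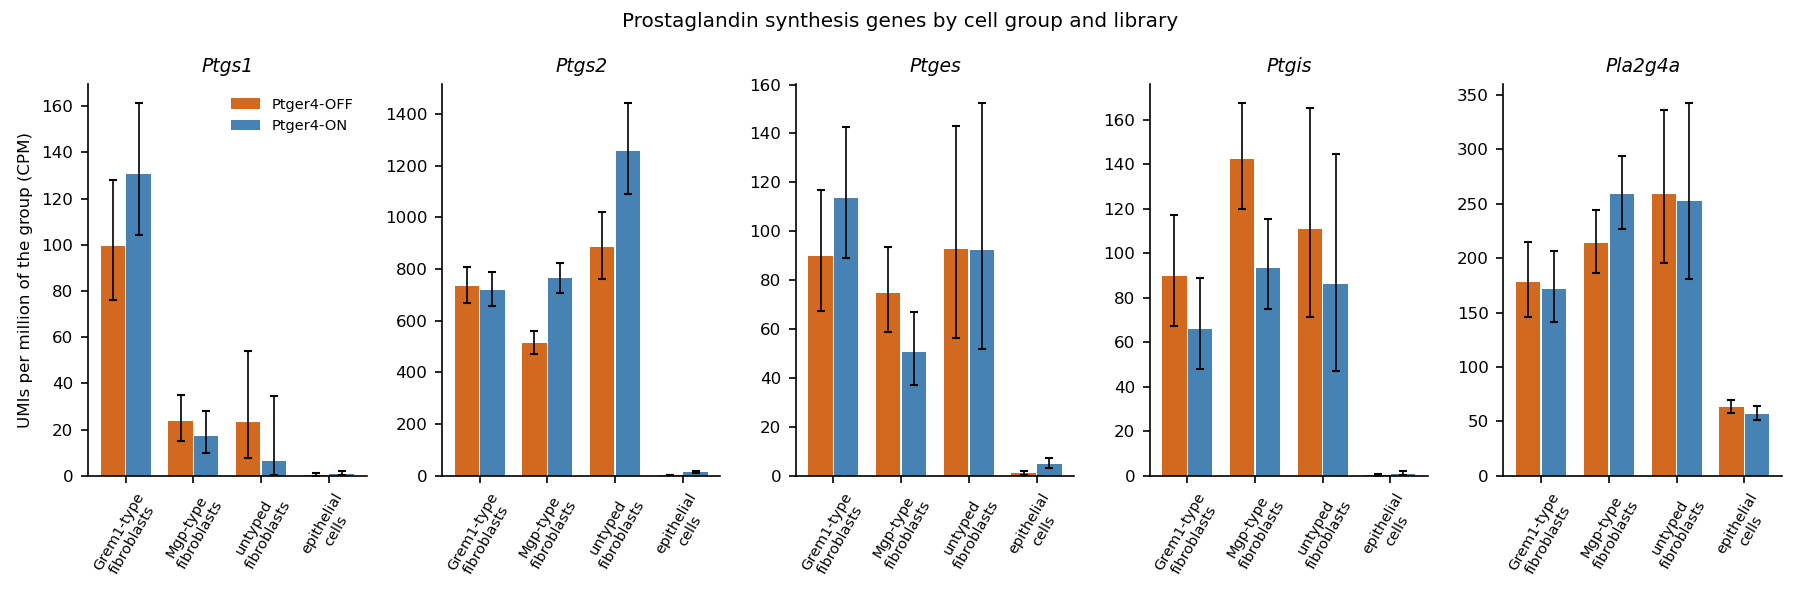
Level of each gene (CPM, UMIs in each 1000000 of the group) in Grem1-type, Mgp-type and untyped fibroblasts and epithelial cells of both libraries, 1 library each, with 95% counting intervals. Ptgs1 stands out in Grem1-type fibroblasts, with 99.6 CPM in Ptger4-OFF and 130 CPM in Ptger4-ON, and epithelial bars are visible mainly for Pla2g4a.

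Pla2g4a, which supplies the substrate, had 207 CPM [187 to 229] in Ptger4-OFF and 226 CPM [204 to 249] in Ptger4-ON fibroblasts, a ratio of 0.918 [0.796 to 1.06]. The interval of that ratio includes 1. Grem1-type cells held 178 Ptger4-OFF and 172 Ptger4-ON CPM, and Mgp-type cells 214 and 259 CPM. The ratio of Grem1-type to Mgp-type cells was 0.831 [0.653 to 1.05] in Ptger4-OFF and 0.664 [0.526 to 0.834] in Ptger4-ON, the Ptger4-ON value just past 1.5-fold (log2 between -0.74 and -0.53 over the alternatives run). Epithelial cells held 63.6 CPM [58.1 to 69.6] in Ptger4-OFF (484 UMIs in 303 cells) and 57.1 CPM [51.0 to 63.8] in Ptger4-ON (316 UMIs in 161 cells). Their Pla2g4a level was 30.7% [26.8 to 35.2] of the fibroblast level in Ptger4-OFF and 25.3% [21.7 to 29.4] in Ptger4-ON. Fibroblast markers outside the rule, summed, reached 0.392% and 0.385% of their fibroblast level in the same epithelial cells, which is taken here as the background. Single markers ran from 0.135% (Loxl1) to 0.895% (Pdgfrb) in Ptger4-OFF and from 0% (Thy1) to 0.839% (Vim) in Ptger4-ON, so this background is approximate.

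Ptgs2, the inducible cyclooxygenase, was present in many fibroblasts of both libraries and was somewhat lower in Ptger4-OFF. It had 629.8 CPM [594 to 667] in Ptger4-OFF fibroblasts (1157 UMIs) and 793 CPM [752 to 836] in Ptger4-ON fibroblasts (1384 UMIs), a ratio of 0.794 [0.734 to 0.859]. Over the alternatives run, log2 of that ratio stayed between -0.36 and -0.30. Mgp-type cells held 513 CPM [470 to 559] in Ptger4-OFF and 764 CPM [709 to 822] in Ptger4-ON, a ratio of 0.672 [0.599 to 0.754] that passed 1.5-fold only with types at least 3 UMIs apart (log2 -0.63). Grem1-type cells held 736 Ptger4-OFF and 720 Ptger4-ON CPM, a ratio of 1.02 [0.895 to 1.17]. Untyped cells, which were shallower (medians of 2644.5 and 2033 UMIs), held 884 CPM [763 to 1018] in Ptger4-OFF and 1257 CPM [1090 to 1442] in Ptger4-ON. Whether the OFF to ON ratio differed between Grem1-type and Mgp-type cells was not tested, since each has 1 library per condition.

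Ptgs2 UMIs were unevenly spread over fibroblasts. After each fibroblast was thinned to 1000 UMIs, which left 349 Ptger4-OFF and 254 Ptger4-ON cells, 38.7% [33.5 to 44.0] of Ptger4-OFF and 43.7% [37.5 to 50.04] of Ptger4-ON fibroblasts had a Ptgs2 UMI. Without thinning the shares were 66.1% and 68.5%. In epithelial cells the thinned shares were 0.174% of 1152 in Ptger4-OFF and 0.564% of 532 in Ptger4-ON, against unthinned median depths of 4161 and 4649 UMIs. Thinned Ptgs2 counts had a variance of 1.83 times their mean in Ptger4-OFF and 1.90 times in Ptger4-ON fibroblasts, where counts drawn at 1 shared rate would give a variance equal to the mean. The 6 Ptger4-OFF and 4 Ptger4-ON fibroblasts with 5 or more thinned UMIs held 13.4% and 11.7% of them.

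Ptgs1, the constitutive cyclooxygenase, was counted mostly in Grem1-type fibroblasts. In Ptger4-OFF they held 99.6 CPM [76.0 to 128] (60 UMIs in 30 of 120 cells), against 23.6 CPM [15.1 to 35.0] in Mgp-type cells (24 UMIs in 20 of 182). In Ptger4-ON they held 130 CPM [104 to 161] (85 UMIs in 35 of 103 cells), against 17.2 CPM [9.82 to 27.9] in Mgp-type cells (16 UMIs in 13 of 126). The ratio of Grem1-type to Mgp-type cells was 4.23 [2.595 to 7.10] in Ptger4-OFF and 7.59 [4.42 to 13.9] in Ptger4-ON. The intervals of both libraries lie above 1. With types that differed by at least 3 UMIs, Grem1-type cells held 123 Ptger4-OFF and 147 Ptger4-ON CPM and Mgp-type cells 25.7 and 19.8 CPM. Untyped cells held 5 Ptger4-OFF UMIs and 1 Ptger4-ON UMI of Ptgs1. After thinning, 10.5% [5.56 to 17.7] of Grem1-type and 2.78% [0.908 to 6.36] of Mgp-type cells had a Ptgs1 UMI in Ptger4-OFF, and 10.4% [5.11 to 18.3] and 2.48% [0.514 to 7.07] in Ptger4-ON.

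Smooth muscle markers (Myh11, Actg2, Des, Cnn1, Smtn) moved with the type. They summed to 576 CPM in Grem1-type and 130 CPM in Mgp-type cells of Ptger4-OFF, and to 474 and 178 CPM in Ptger4-ON, mostly Actg2, with Des at 0 in the Grem1-type cells of both libraries. Without cells that carried any such UMI, 54 Grem1-type and 124 Mgp-type cells of Ptger4-OFF gave a Ptgs1 ratio of 8.47 [4.21 to 18.2]. In Ptger4-ON, 38 Grem1-type and 75 Mgp-type cells gave 2.77 [0.740 to 10.4], from 6 UMIs each. That interval includes 1. The overall Ptgs1 ratio of Ptger4-OFF to Ptger4-ON fibroblasts was 0.829 [0.617 to 1.11], from 48.4 CPM in Ptger4-OFF and 58.5 CPM in Ptger4-ON, and changed direction when each cell had equal weight.

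**Figure D2:**
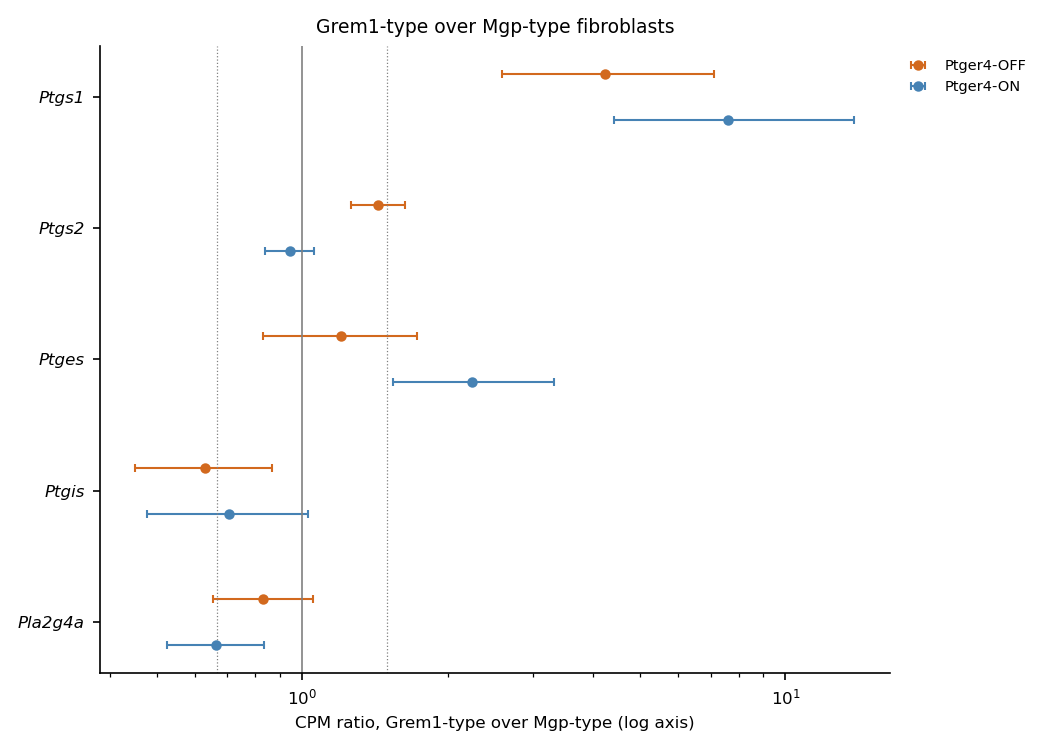
Ratio of CPM in Grem1-type over Mgp-type fibroblasts (log axis) for each gene in Ptger4-OFF and Ptger4-ON, with 95% counting intervals, a solid line at 1 and dotted lines at 1.5-fold. Ptgs1 lies at 4.23 in Ptger4-OFF and 7.59 in Ptger4-ON, and Ptgis lies below 1 in both. In Ptger4-ON cells without smooth muscle UMIs, not drawn, Ptgs1 was at 2.77 [0.740 to 10.4] and Ptgis at 1.26 [0.635 to 2.38].

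Of the terminal synthases, Ptges was higher in Grem1-type cells of Ptger4-ON and Ptgis was higher in Mgp-type cells of Ptger4-OFF. Ptges, for prostaglandin E2, had 89.7 CPM [67.4 to 117] in Grem1-type and 74.6 CPM [58.8 to 93.4] in Mgp-type cells of Ptger4-OFF, a ratio of 1.20 [0.832 to 1.73]. In Ptger4-ON it had 114 CPM [89.2 to 143] in Grem1-type and 50.5 CPM [37.1 to 67.1] in Mgp-type cells, a ratio of 2.25 [1.54 to 3.32]. Of these intervals the Ptger4-ON one excludes 1, but in cells without smooth muscle UMIs the Ptger4-ON ratio of 2.31 [0.893 to 5.83] does not. Ptgis, for prostacyclin, had 89.7 CPM in Grem1-type and 142 CPM in Mgp-type cells of Ptger4-OFF, a ratio of 0.630 [0.452 to 0.867], or 0.847 [0.491 to 1.40] in the cells without smooth muscle UMIs. In Ptger4-ON it had 66.0 CPM in Grem1-type and 93.4 CPM in Mgp-type cells, a ratio of 0.706 [0.478 to 1.03], which became 1.26 [0.635 to 2.38] in the cells without smooth muscle UMIs. Counted over the 5 genes, 1 was past 1.5-fold higher (Ptgs1) and 1 lower (Ptgis) in Grem1-type cells of Ptger4-OFF, where 8.85% of 7900 genes were past it higher and 10.6% lower. In Ptger4-ON, 2 were past it higher (Ptgs1, Ptges) and 1 lower (Pla2g4a), where 11.0% of 7908 genes were higher and 9.88% lower.

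Between conditions, no gene passed 1.5-fold in all fibroblasts, which 6.5% of 9759 genes did higher in Ptger4-OFF and 7.51% lower. Ptgis came nearest, with 121 CPM [106 to 138] in Ptger4-OFF (223 UMIs) and 82.5 CPM [69.6 to 97.2] in Ptger4-ON (144 UMIs), a ratio of 1.47 [1.19 to 1.83]. With equal weight for each cell its log2 was 0.81, past the threshold. Ptges had 81.6 CPM in Ptger4-OFF and 77.9 CPM in Ptger4-ON, a ratio of 1.05 [0.825 to 1.33]. In Mgp-type cells, Ptgis at 1.52 [1.16 to 2.01] was the 1 gene past the fold, against 8.96% of 8382 genes higher and 7.74% lower, and its log2 ran from 0.34 to 0.62 over the alternatives run. Ptges was at 1.48 [1.01 to 2.17], Ptgs1 at 1.37 [0.699 to 2.76] and Pla2g4a at 0.827 [0.685 to 0.997]. In Grem1-type cells, 0 of 5 passed it, against 9.97% of 7281 genes higher and 10.9% lower. There Ptgs1 was at 0.764 [0.539 to 1.08], Ptges at 0.789 [0.545 to 1.14] and Ptgis at 1.36 [0.893 to 2.08], and each interval includes 1. With equal weight for each cell, Ptgs1 turned to a log2 of 0.18. These ratios use the same CPM values as the ratios between types.

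**Figure D3:**
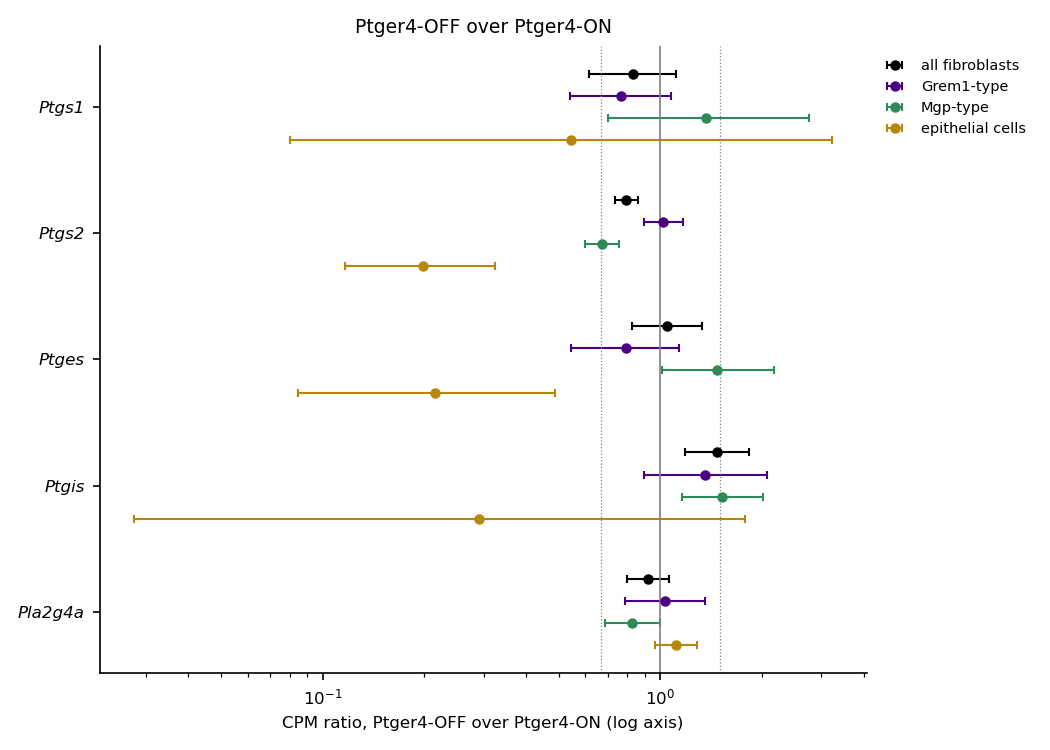
Ratio of CPM in Ptger4-OFF over Ptger4-ON (log axis) in all fibroblasts, Grem1-type, Mgp-type and epithelial cells, with 95% counting intervals, a solid line at 1 and dotted lines at 1.5-fold. Mgp-type cells lie at 0.672 for Ptgs2 and 1.52 for Ptgis, and epithelial Ptgs2 (0.198) and Ptges (0.216) lie farthest below 1.

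Whether the same fibroblast carried several of these transcripts was asked of all 10 pairs of genes in each library. Cells with both were compared with the product of the 2 shares. At 1000 UMIs per cell, Ptgs2 occurred with Pla2g4a in 25 of 349 Ptger4-OFF fibroblasts, where the product gave 22.8, and in 20 of 254 Ptger4-ON fibroblasts, where it gave 21.9. Ptgs2 with Ptges was seen in 8 Ptger4-OFF cells, where 8.51 were given by the product, and in 8 Ptger4-ON cells, where 7.87 were. Both cyclooxygenases occurred together in 7 cells of each library, where the product gave 6.58 and 6.12. The counting intervals of observed over product included 1 for all 10 pairs in both libraries, so no departure was detectable at this depth. Pairs of the rarer genes rested on 0 to 9 cells and moved with the random draw.

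**Figure D4:**
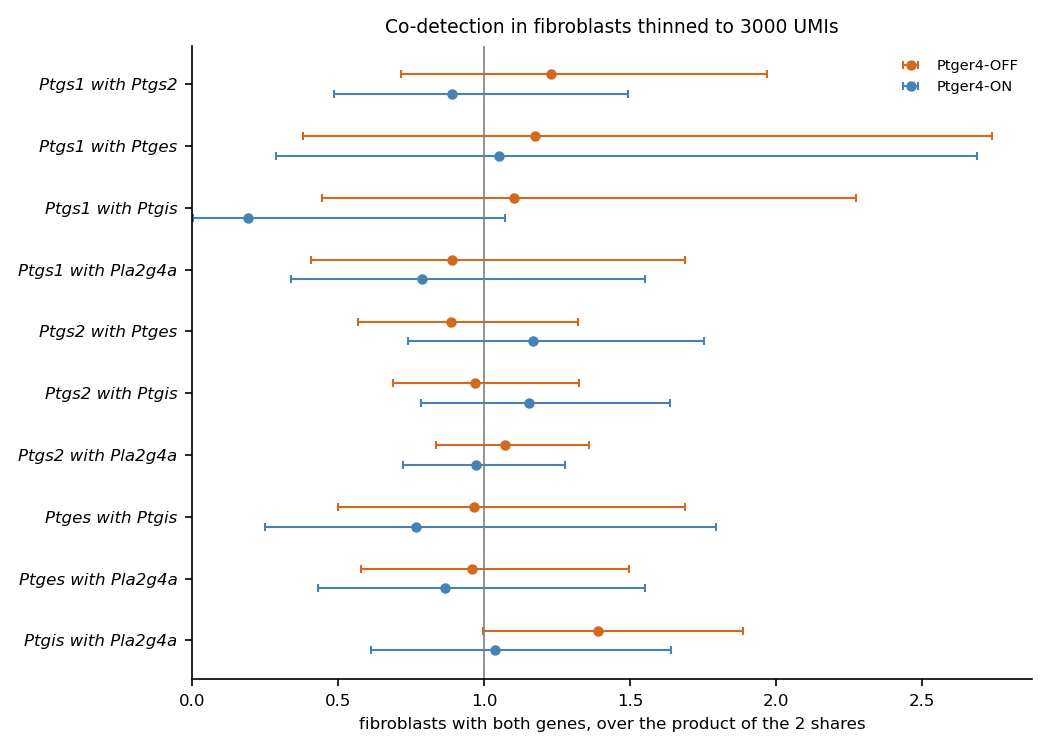
Fibroblasts with UMIs of both genes of a pair, divided by the product of the 2 shares, at 3000 UMIs per cell in 243 Ptger4-OFF and 189 Ptger4-ON fibroblasts, with 95% counting intervals. All 20 intervals include 1, with Ptgis with Pla2g4a in Ptger4-OFF at 1.39 [0.997 to 1.89].

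At 3000 UMIs, a depth chosen after seeing the data, Ptgs2 occurred with Pla2g4a in 69 Ptger4-OFF fibroblasts (64.3 by the product) and 51 Ptger4-ON fibroblasts (52.5 by the product). Ptgis occurred with Pla2g4a in 41 (29.5) and 18 (17.4). With all UMIs, 51 of 360 Ptger4-OFF fibroblasts (14.2% [10.7 to 18.2]) and 41 of 276 Ptger4-ON fibroblasts (14.9% [10.9 to 19.6]) carried Pla2g4a, Ptgs2 and Ptges together, the genes of the route to prostaglandin E2. After thinning to 1000 UMIs, 0 of 349 and 0 of 254 did, with exact upper limits of 1.05% and 1.44%. These limit the share of cells with such UMIs at that depth, not of cells that express the genes. At neither depth was this set of genes compared with the product of its shares. Shares follow depth, so no joint expression of the set is read from these values. In the cells thinned to 1000 UMIs, 3 Ptger4-OFF and 4 Ptger4-ON fibroblasts had UMIs of 3 of the 5 genes, and 0 had more. Independent shares would give 6.73 and 4.96 cells with 3 genes. Fibroblasts with no thinned Ptgs2 UMI held Ptges at 62.4 Ptger4-OFF and 76.0 Ptger4-ON CPM. Those with 1 held it at 117 and 77.4 CPM, and those with 2 or more at 103 and 87.2 CPM. The counting intervals for 0 and for 2 or more overlap in both libraries. The interval for 1 lies above that for 0 in Ptger4-OFF and overlaps it in Ptger4-ON. Cells with no thinned Ptgs2 UMI did not lack Ptgs2. With all UMIs they held it at 264 Ptger4-OFF and 339 Ptger4-ON CPM.

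Across Mgp-type fibroblasts with at least 1000 UMIs (180 in Ptger4-OFF and 121 in Ptger4-ON), the genes most like Ptgs2 among 6120 were Errfi1, Fn1, Phlda1, Cyr61, Thbs1 and Cox6a1. Errfi1, an inhibitor of EGF receptor signalling, had a Pearson r of 0.30 in Ptger4-OFF and 0.34 in Ptger4-ON on log values per 10000 UMIs. Fn1 encodes fibronectin, Thbs1 thrombospondin, Cyr61 a matricellular protein and Cox6a1 a subunit of mitochondrial cytochrome c oxidase. The lower r of both libraries was at least 0.24 for these 6 genes, weak values over cells that share a library and differ in depth. Gpr137 ranked first for Ptgs1 (0.24 Ptger4-OFF, 0.25 Ptger4-ON), Surf4 for Ptges (0.20, 0.21), Hs6st2 for Ptgis (0.23, 0.23) and Rbms2 for Pla2g4a (0.24, 0.23). All Mgp-type cells together held only 24 Ptger4-OFF and 16 Ptger4-ON UMIs of Ptgs1, so nothing about Ptgs1 is read from its rank. Between the 5 genes themselves r ran from -0.03 to 0.28 in Ptger4-OFF and from -0.07 to 0.20 in Ptger4-ON, the highest for Ptgis with Pla2g4a in Ptger4-OFF (0.28), which was 0.10 in Ptger4-ON.

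In epithelial cells, Ptgs2 and Ptges were lower in Ptger4-OFF, on few UMIs in few cells. Ptgs2 had 2.76 CPM [1.71 to 4.22] in Ptger4-OFF (21 UMIs in 13 cells) and 13.9 CPM [11.0 to 17.4] in Ptger4-ON (77 UMIs in 16 cells), a ratio of 0.198 [0.116 to 0.325]. Ptges had 1.05 CPM [0.454 to 2.07] in Ptger4-OFF (8 UMIs in 8 cells) and 4.88 CPM [3.22 to 7.10] in Ptger4-ON (27 UMIs in 8 cells), a ratio of 0.216 [0.0846 to 0.488]. Of the 3 genes with at least 20 UMIs over both libraries, these 2 were past 1.5-fold lower, as were 10.6% of 11618 genes. Past it higher were 0, as were 7.2% of those genes. Ptges, with 8 and 27 UMIs, met the minimum only through Ptger4-ON, so its place in this count follows partly from the filter. Pla2g4a had a ratio of 1.11 [0.965 to 1.29]. Ptgs1 had 3 Ptger4-OFF and 4 Ptger4-ON UMIs and Ptgis 2 and 5, and no direction is read from them.

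Ptgs2 was counted in 1.08% [0.579 to 1.85] of 1199 Ptger4-OFF and 2.74% [1.57 to 4.40] of 585 Ptger4-ON epithelial cells without thinning, and a few cells held most of the Ptger4-ON UMIs. The 5 Ptger4-ON cells with most Ptgs2 held 63 of the 77 UMIs, between 3 and 19 each, at depths of 11842 to 45505 UMIs. Those 5 cells had 159 to 566 UMIs of Epcam, Krt8 and Krt18 and 0 or 1 of the collagens, and fibroblast markers outside the rule made 54.2 CPM in them, against 96.0 CPM in the 569 Ptger4-ON cells without Ptgs2. In Ptger4-OFF the 5 highest cells held 13 of 21 UMIs, with up to 9 collagen UMIs and 592 CPM of fibroblast markers, against 88.1 CPM in the 1186 cells without Ptgs2. In epithelial cells with no collagen UMI, Ptgs2 had 1.63 CPM [0.746 to 3.10] in Ptger4-OFF and 13.1 CPM [9.52 to 17.5] in Ptger4-ON. Without the 5 highest cells of each library, log2 of Ptger4-OFF over Ptger4-ON was -1.24 for Ptgs2 and -0.48 for Ptges. With all cells it was -2.31 and -2.15. Few Ptgs2 UMIs were left, since those cells held 13 of 21 and 63 of 77, and Ptges fell below the minimum of 20 UMIs. No interval was computed for what was left, so no direction is read from -1.24 or -0.48. With equal weight for each cell the log2 ratios were -1.02 for Ptgs2 and -0.74 for Ptges.

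Relative to their level in fibroblasts, epithelial Ptgs2 stood at 0.438% [0.270 to 0.673] in Ptger4-OFF and 1.75% [1.38 to 2.21] in Ptger4-ON. Ptges stood at 1.29% [0.546 to 2.605] and 6.26% [3.98 to 9.51]. The fibroblast markers' 0.392% in Ptger4-OFF lies inside the Ptgs2 interval, and their 0.385% in Ptger4-ON lies below it. Ptgs1 (0.814% [0.165 to 2.46] and 1.24% [0.331 to 3.26]) and Ptgis (0.217% [0.0261 to 0.792] and 1.09% [0.350 to 2.61]) had intervals that include the marker level in both libraries, from 2 to 5 UMIs each, and were not distinguishable from it at this depth.

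**Figure D5:**
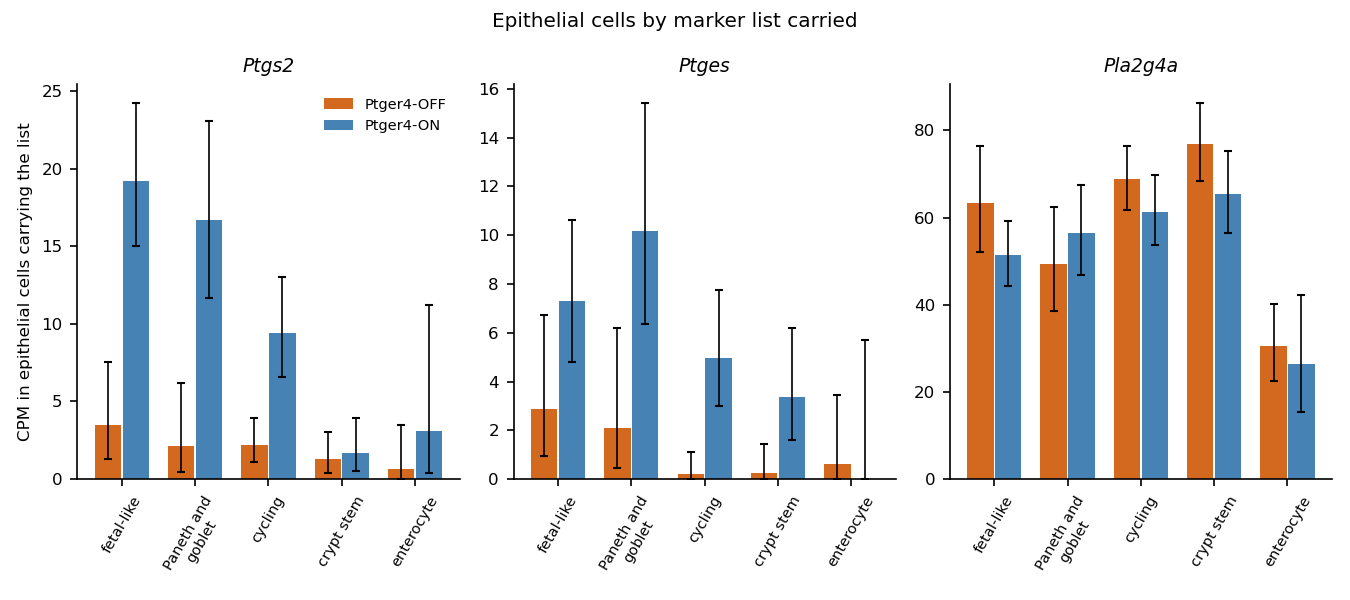
Level of Ptgs2, Ptges and Pla2g4a (CPM) in epithelial cells that carried a marker list (at least 3 UMIs from at least 2 of its genes) in Ptger4-OFF and Ptger4-ON, with 95% counting intervals. A cell can carry several lists. Of the 5 lists drawn, Ptgs2 is highest in fetal-like cells of Ptger4-ON (19.2 CPM, 63 of 71 UMIs in 5 cells), and Pla2g4a is lowest in enterocyte-list cells of both libraries.

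By the marker lists an epithelial cell carried (at least 3 UMIs from at least 2 genes), 129 Ptger4-OFF and 243 Ptger4-ON cells carried the fetal-like list (Clu, Ly6a, Msln, Anxa1, Il1rn). These held 6 of 21 Ptgs2 UMIs in Ptger4-OFF and 71 of 77 in Ptger4-ON, and 5 of 8 and 27 of 27 Ptges UMIs. In Ptger4-ON they had 19.2 CPM [15.0 to 24.2] of Ptgs2, against 3.27 CPM [1.20 to 7.13] in the other 342 cells. That difference lay in the 5 cells with most Ptgs2, all of which carried the list. Without them, a value chosen after seeing the data, the remaining 238 fetal-like cells had 8 UMIs, or 2.24 CPM [0.967 to 4.41]. The 5 Ptger4-ON cells with most Ptges, which held 24 of its 27 UMIs, also all carried the list. Cells with the Paneth and goblet list (Lyz1, Defa17, Spink4, Muc2, Tff3), 145 in Ptger4-OFF and 140 in Ptger4-ON, held 3 of 21 and 36 of 77 Ptgs2 UMIs. They held 3 of 8 and 22 of 27 Ptges UMIs, which in Ptger4-ON was 10.2 CPM [6.38 to 15.4], against 7.30 CPM [4.81 to 10.6] in fetal-like cells. Of the 5 highest Ptger4-ON cells of each gene, 3 carried this list. Fetal-like cells of Ptger4-ON were also deeper, with a median of 8908 UMIs against 3577, and the part of depth in carrying a list was not tested. Pla2g4a in cells with crypt stem genes (Lgr5, Ascl2, Smoc2, Olfm4) had 77.0 CPM [68.5 to 86.2] in Ptger4-OFF and 65.3 CPM [56.5 to 75.2] in Ptger4-ON. With enterocyte genes (Fabp1, Apoa1, Apoa4, Sis) it had 30.5 CPM [22.5 to 40.3] in Ptger4-OFF and 26.3 CPM [15.3 to 42.1] in Ptger4-ON. Enterocyte-list cells were low in both libraries, and their intervals do not overlap those of crypt stem-list cells. The 9 Ptger4-OFF and 2 Ptger4-ON cells that carried the tuft list held 0 Ptgs1 UMIs.

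Of 52 other genes of the eicosanoid pathway, 48 had a row. In fibroblasts 25 had at least 20 UMIs, of which 5 were past 1.5-fold higher and 3 lower in Ptger4-OFF, where 6.5% and 7.51% of all genes were. Their median was a log2 ratio of 0.04, against 0.02 over all genes. The 6 with the largest ratios were Ppard, Plcb1 and Mgll on the lower side and Ptger3, Pla2g7 and Ltc4s on the higher. Mgll, which releases arachidonic acid from monoacylglycerol, had 21.2 CPM in Ptger4-OFF and 39.0 CPM in Ptger4-ON, a ratio of 0.545 [0.358 to 0.819]. Pla2g7, which breaks down platelet-activating factor, had 39.2 and 21.8 CPM, a ratio of 1.80 [1.20 to 2.74]. Its UMIs lay mainly in Grem1-type cells (70 Ptger4-OFF and 31 Ptger4-ON, a ratio of 2.44 [1.58 to 3.86]). Mgp-type cells held 2 and 7. Ppard, a nuclear receptor, stood at 0.460 [0.237 to 0.861], while Plcb1 (0.475 [0.176 to 1.18]), the EP3 gene Ptger3 (1.90 [0.810 to 4.80]) and the leukotriene C4 synthase gene Ltc4s (1.73 [0.789 to 3.99]) had intervals that include 1.

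In epithelial cells 29 of the 52 had at least 20 UMIs, of which 6 were past the fold higher and 9 lower in Ptger4-OFF, where 7.2% and 10.6% of all genes were. Their median was -0.01, against -0.04 over all genes. Pla2g10, a secreted phospholipase, had 9 Ptger4-OFF and 35 Ptger4-ON UMIs, a ratio of 0.187 [0.0791 to 0.397]. It met the minimum of 20 UMIs only through Ptger4-ON. Slco2a1, the prostaglandin importer, had 21 and 39 UMIs, a ratio of 0.392 [0.219 to 0.683], and Abcc4, an exporter, had 10.0 and 22.2 CPM, a ratio of 0.450 [0.333 to 0.603]. Mgll had 23 UMIs in Ptger4-OFF and 0 in Ptger4-ON, and met that minimum only through Ptger4-OFF. With 3 counts in place of the 0 it was 5.58-fold higher in Ptger4-OFF, a value that has no counting interval. Ptger4 and Hpgd were counted mainly in epithelial cells. Ptger4 had 29.2 CPM in Ptger4-OFF and 26.9 CPM in Ptger4-ON epithelial cells, against 2 UMIs in the fibroblasts of each. Hpgd, which inactivates prostaglandin E2, had 34.6 and 27.8 CPM in Ptger4-OFF and Ptger4-ON epithelial cells, against 0 and 1 UMIs in fibroblasts.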

How the data were processed

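The authors deposited for each library 1 table of raw counts, with genes in rows and cell barcodes in columns. That they count UMIs follows from the Drop-seq protocol in the labels. Reads were aligned with STAR 2.6 to mm10, per the submitters' processing notes. The counting tool, annotation and choice of barcodes were not given in the sources used here. Barcodes ending in N (152 Ptger4-OFF, 96 Ptger4-ON) and pairs 1 base apart (17 and 61) were kept.

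Barcodes needed 300 genes or more and no more than 20% of UMIs from mitochondrial genes (1564 Ptger4-OFF, 882 Ptger4-ON). Scrublet, through scanpy 1.11.5, removed 4 and 6 as doublets, so few that doublets may remain. Scripts ran in Python 3.11.15 with pandas 2.3.3, scipy 1.17.1 and numpy 2.4.6. UMIs were summed per group and divided by the group total (CPM). Each CPM has an exact Poisson, each ratio an exact conditional binomial and each share an exact Clopper-Pearson 95% interval. Log2 ratios use counts plus 0.5, and genes needed 20 UMIs over both groups. A gene could therefore meet that minimum through the group where it was higher. Scaling alternatives were median-of-ratios factors and, from edgeR 4.0.16 under R 4.3.3, TMM factors. Computations were tested on simulated counts, and figures drawn with matplotlib 3.10.9.

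The 5 genes, the other pathway genes and the marker lists were chosen with earlier results of these data known. Of the other pathway genes, the 6 (fibroblasts) and 4 (epithelial cells) with the largest ratios were named. For likeness to each gene, up to 6 genes with the highest lower r of both libraries were ranked among genes with a UMI in at least 10% of Mgp-type cells of both.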

Additional observations from a re-analysis of the deposited data

Results flagged for a closer look

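The ratio of Ptger4-OFF to Ptger4-ON pointed in opposite directions in Grem1-type and Mgp-type fibroblasts for Ptgs1, Ptgs2, Ptges and Pla2g4a, but not for Ptgis. The difference of their log2 ratios (Grem1-type minus Mgp-type) was -0.83 for Ptgs1 (-0.39 and 0.44), 0.60 for Ptgs2 (0.03 and -0.57), -0.89 for Ptges (-0.34 and 0.56) and 0.32 for Pla2g4a (0.05 and -0.27). The Grem1-type values all have intervals that include 1 as a ratio, and so does the Mgp-type value of Ptgs1 (0.699 to 2.76). The share of all genes with opposite directions was not computed, so no result about these genes is read from the directions. Read the other way, log2 of Grem1-type over Mgp-type Ptgs2 was 0.52 in Ptger4-OFF and -0.08 in Ptger4-ON, the same difference of 0.60. In the cells without smooth muscle UMIs, a choice made after seeing the data, the libraries did not differ in this way. There the Ptgs2 ratio of Grem1-type to Mgp-type cells was 1.30 [1.04 to 1.63] in Ptger4-OFF and 1.28 [1.01 to 1.62] in Ptger4-ON. Between classes, fibroblasts minus epithelial cells, the difference was 2.22 for Ptges (0.07 and -2.15), 2.15 for Ptgis (0.55 and -1.60, the last from 2 and 5 UMIs) and -0.28 for Pla2g4a (-0.12 and 0.16). None of these differences was tested, because each condition has 1 library.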

How the results depend on the processing

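No paired analysis was possible because each condition has 1 library. Of 640 alternative values of the ratios, 624 stayed inside the counting interval of the reported value. The values below are log2 ratios. With equal weight for each cell, Ptgs1 in fibroblasts (Ptger4-OFF over Ptger4-ON) was 0.23, against -0.27 as reported. Ptgs2, Ptges and Pla2g4a in epithelial cells were -1.02, -0.74 and -0.088, and fibroblasts over epithelial cells in Ptger4-ON gave 6.74 for Ptgs2, 5.16 for Ptges, 4.60 for Ptgis and 1.72 for Pla2g4a. Without barcodes over 50000 UMIs (6 Ptger4-OFF, 16 Ptger4-ON), that value for Ptgs2 was 5.47. Chosen after seeing the data, leaving out the 5 cells with most UMIs gave -1.24 for Ptgs2 and -0.48 for Ptges in epithelial cells. Both rest on few remaining UMIs. Also chosen then, fibroblasts without smooth muscle UMIs gave Grem1-type over Mgp-type values of 3.05 (Ptger4-OFF) and 1.47 (Ptger4-ON) for Ptgs1, and in Ptger4-ON 0.36 for Ptgs2 and 0.36 for Ptgis, against -0.08 and -0.49 over all cells. The causes were not tested. TMM and median-of-ratios factors shifted all values of a class by at most 0.05.

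Shares of fibroblasts with a UMI follow the depth they are thinned to. In Ptger4-OFF, without thinning, 15.3% had Ptgs1, 66.1% Ptgs2, 28.1% Ptges, 35.8% Ptgis and 50% Pla2g4a. In Ptger4-ON these were 17.8%, 68.5%, 27.2%, 29.3% and 54.7%. At 3000 UMIs, chosen after seeing the data, they were 9.47%, 60.1%, 18.5%, 27.6% and 44.0% in Ptger4-OFF and 12.7%, 65.6%, 15.9%, 21.7% and 42.3% in Ptger4-ON. At 500 UMIs, Ptgs2, Ptgis and Pla2g4a were at 23.6%, 5.83% and 7.5% in Ptger4-OFF and 28.6%, 3.26% and 10.1% in Ptger4-ON, and Ptgs1 at 1.45% in Ptger4-ON. With another seed at 1000 UMIs, Ptgis was at 8.02% in Ptger4-OFF, against 11.5%.

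Co-detection, as cells with both over the product of shares, left its interval for 7 of 140 values. At 500 UMIs, Ptgs2 with Ptgis was 0.202 in Ptger4-OFF, and Ptges with Ptgis and Ptgis with Pla2g4a were 0 in Ptger4-ON. With another seed, Ptgs1 with Ptgis and Ptges with Ptgis were 0 and Ptgs1 with Pla2g4a 1.63 in Ptger4-OFF, and with the wider marker lists Ptgs1 with Pla2g4a was 1.51. These pairs rest on so few cells that no co-detection of the rarer genes is read from them.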
